A study of Mus musculus with 10 samples.

Results

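The 8 genes described here (Cacna1c, Cacna1d, Cacna1a, Cacna1b, Cacna1e, Cacna1g, Cacna1h and Cacna1i) encode the pore-forming α1 subunits of the voltage-gated calcium channels of L, P/Q, N, R and T type. They were taken by symbol as a family, with no threshold on a measured value, and are 8 of the 25006 genes listed for each library. Their levels were read in 10 single neurons of the mouse nucleus of the solitary tract, where sensory nerves from the viscera end in the brainstem. The source animals were LepRb-Cre; Halo-eYFP mice on a C57BL/6 background at 3 months of age, in which a cell that has expressed the leptin receptor carries a yellow fluorescent protein. Both groups share this genotype, strain, age and tissue, and the labels name no treatment. By their labels, 5 neurons (6-2, 9-2, 9-4, 10-1 and 10-3) had a type 2 and 5 neurons (1-1, 1-2, 4-3, 8-2 and 9-1) a type 1 firing property. The cytoplasm and nucleus of each neuron were drawn into a glass pipette from an acute brainstem slice and made into 1 library. What the firing properties or the numbers stand for is not said, and no animal is named. Each firing type therefore counts as 1 sample, no test between the types was made, and every SD below is the spread between neurons.

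An α1 subunit is 1 long protein that folds into 4 repeats around a calcium-selective pore and carries the voltage sensor. L-type channels open at strong depolarization, stay open long and couple calcium entry to gene transcription and pacemaking. P/Q-, N- and R-type channels also need strong depolarization and trigger transmitter release at nerve terminals, while T-type channels open near rest and give rise to low-threshold bursts and rebound firing. Repetitive firing in neurons is shaped by which of these channels a cell has, partly because the calcium they admit opens potassium channels that set the pause after a spike.

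The classes can be read directly in the coding sequence. The windows below are 36 coding bases of the third pore loop of each gene, from the GENCODE M21 transcripts on GRCm38. They are shown because each carries a residue that takes part in calcium selectivity, and because they show how alike the 8 genes are in this stretch. Capitals mark the codon of that residue, a glutamate in the L, P/Q, N and R types and an aspartate in the T types.
Cacna1c (L, chr6:118654452-118656144, minus strand): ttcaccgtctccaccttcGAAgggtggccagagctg
Cacna1d (L, chr14:30099240-30100728, minus strand): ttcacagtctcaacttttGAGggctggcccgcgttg
Cacna1a (P/Q, chr8:84581320-84583562, plus strand): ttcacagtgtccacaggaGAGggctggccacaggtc
Cacna1b (N, chr2:24650625-24651112, minus strand): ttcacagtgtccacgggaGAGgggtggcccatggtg
Cacna1e (R, chr1:154443999-154444903, minus strand): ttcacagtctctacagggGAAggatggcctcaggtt
Cacna1g (T, chr11:94426456-94426491, minus strand): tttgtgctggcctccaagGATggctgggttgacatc
Cacna1h (T, chr17:25383493-25383528, minus strand): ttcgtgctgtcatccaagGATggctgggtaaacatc
Cacna1i (T, chr15:80376789-80376824, plus strand): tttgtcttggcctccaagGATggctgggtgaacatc
In the 5 genes with the glutamate codon the window is split by an intron of 452 to 2207 bases, so the coordinates cover more than the bases printed. In the 3 T-type genes it lies within 1 exon. The T-type windows share 30 to 32 of 36 bases with each other, the L, P/Q, N and R windows share 24 to 30 with each other, and a T-type window shares 14 to 20 with any of these. Over the whole coding sequence, the longest stretch that any pair of the 8 genes has in common ranged from 13 bases (Cacna1d and Cacna1g) to 68 bases (Cacna1g and Cacna1i). The length of the sequencing reads is not given in the sources used here, so how often a read could fall wholly inside such a stretch is unknown.

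Gene counts per library ranged from 12195253 to 41608996 in type 2 neurons and from 9796799 to 41844825 in type 1 neurons. Libraries 6-2, 1-1, 1-2 and 4-3 held under 20000000 counts and the other 6 held more, so the lower depth set is 1 type 2 and 3 type 1 neurons. Levels are given in CPM, the usual scaling of counts by the library's summed gene counts. By depth alone, a count of 0 allows up to 0.0717 CPM where a library was deepest and up to 0.306 CPM where it was shallowest. A gene is called detected in a neuron where it has 10 CPM or more and 3 counts or more. Of 10 neuronal markers, 9 of them pan-neuronal and Slc17a6 a marker of glutamatergic neurons, 8 to 10 were detected in each neuron. In mean log2(CPM + 1), 2 were higher and 2 lower in type 2 by 1 unit or more, where 32.1% and 22.3% of genes averaging 10 CPM or more were. Nefl had 30.1 to 334 CPM in type 2 neurons and 754 to 1861 CPM in type 1 neurons. Stmn2 had 1254 to 1745 CPM in type 2 neurons and 357 to 1147 CPM in type 1 neurons. Lepr itself reached 0.890 to 50.7 CPM in type 2 neurons and 1.15 to 122 CPM in type 1 neurons, and was under 10 CPM in 9-4, 1-2, 8-2 and 9-1. Gcg, the precursor of glucagon-like peptide, had 3556 CPM or more in every type 2 neuron and at most 14.1 CPM in type 1 neurons. Gal, the galanin precursor, had at most 149 CPM in type 2 neurons and 1859 CPM or more in type 1 neurons. Transcripts of microglia, the resident immune cells of the brain, were detected for 12, 6, 13, 0 and 1 of 14 markers in 6-2, 9-2, 9-4, 10-1 and 10-3, against 0, 5, 0, 1 and 1 in 1-1, 1-2, 4-3, 8-2 and 9-1. Summed over the 14 markers the level was 4.18 to 1823 CPM in type 2 neurons and 0.0668 to 804 CPM in type 1 neurons. Of 8 astrocyte markers, 1 to 4 were detected in each neuron, and they summed to 943 to 1775 CPM in type 2 neurons and 150 to 671 CPM in type 1 neurons, without overlap. Most of this sum was Aldoc, at 856 to 1775 CPM in type 2 neurons and 147 to 622.8 CPM in type 1 neurons. Of genes averaging 10 CPM or more, 2.45% had no overlap between the types, a share that was not computed for sums. S100b went the other way, with 2.07 ± 4.48 CPM in type 2 neurons and 23.4 ± 31.0 CPM in type 1 neurons. Gfap reached 56.1 CPM in 6-2, Aldh1l1 51.0 CPM in 9-4 and S100b 73.9 CPM in 4-3, while Slc1a3 was at 0 and Aqp4 at or under 0.445 CPM throughout. Of 8 oligodendrocyte markers, 1 to 3 were detected in each type 2 neuron and 0 to 3 in each type 1 neuron, with sums of 39.2 to 220.2 CPM in type 2 neurons and 2.00 to 1045 CPM in type 1 neurons, and with Olig2 at 0 in all 10. The highest sum, 1045 CPM, was in 9-1, with 578 CPM of Mbp. Of 8 vascular markers, 0 or 1 was detected in each neuron, and they summed to 0.120 to 10.7 CPM in type 2 neurons and 0.836 to 27.6 CPM in type 1 neurons. The part of these transcripts in the differences below was not tested.

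Each neuron held several pore genes, but which ones varied from cell to cell, and no pore gene was detected in all 10 neurons. Of the 9212 genes whose mean over the 10 neurons was 10 CPM or more, called abundant genes below, 18.4% were detected in all 10. The number of pore genes detected was 3, 5, 3, 2 and 2 in the type 2 neurons 6-2, 9-2, 9-4, 10-1 and 10-3, and 5, 6, 4, 3 and 4 in the type 1 neurons 1-1, 1-2, 4-3, 8-2 and 9-1. Of the 40 combinations of gene and neuron in each type, 15 were detections in type 2 and 22 in type 1, and at a level of 5 CPM there were 20 in type 2 and 22 in type 1. Over all 25006 genes, 5993 to 7367 were detected per type 2 neuron and 5315 to 7073 per type 1 neuron. The overall number at 5 CPM is not given here. For the pore genes, 10-1 and 10-3 had the fewest detected, and 1-2 the most. Over all genes, 1-1 had the fewest, 5315, and 6-2 the most, 7367, with 6120 in 10-1 and 5993 in 10-3. Among all 80 values, 14 were a count of 0 and 17 more lay above 0 but under 1 CPM. The 6 genes other than Cacna1g and Cacna1i, that is those of L, P/Q, N and R type together with Cacna1h, were detected in at least 1 neuron of each type, where 90.6% of abundant genes were. With 5 neurons in a type, exact Clopper-Pearson 95% intervals for the share of neurons with a gene detected run from 14.7 to 94.7% for 3 of 5, upward from 47.8% for 5 of 5 and up to 52.2% for 0 of 5. These intervals take the 5 neurons as independent, which the labels do not establish: 9-2 and 9-4 share a first number, as do 10-1 and 10-3, and 1-1 and 1-2.

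**Figure D1:**
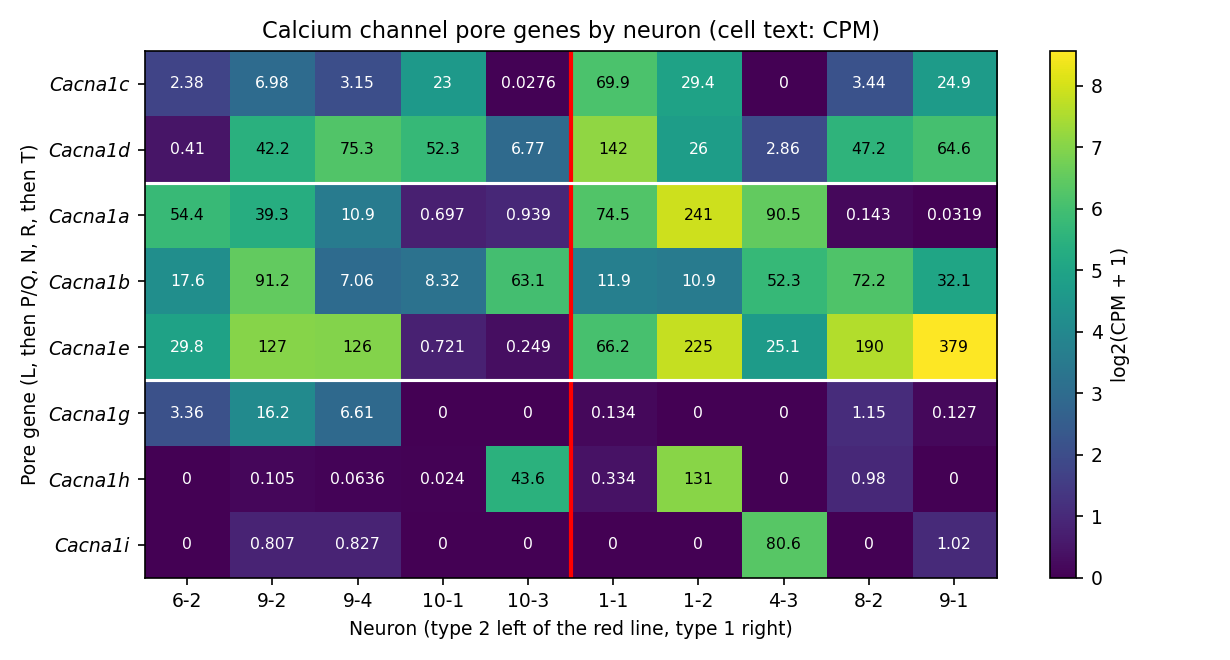
Level of the 8 pore genes (rows, grouped as L, then P/Q, N and R, then T) in each neuron (columns, type 2 left of the red line and type 1 right). Colour is log2(CPM + 1) and the text in each cell is CPM. Cacna1b is above 5 CPM in every column, while Cacna1g, Cacna1h and Cacna1i are dark in most.

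Of the L-type pair, Cacna1c encodes the main L-type pore of heart and of many neurons, and Cacna1d encodes an L-type pore that opens at less depolarized voltages and is known for pacemaking. Cacna1c (ENSMUSG00000051331, 21191 exon bases, chr6:118587240-119196418, minus strand) had 2.38, 6.98, 3.15, 23.0 and 0.0276 CPM in the type 2 neurons 6-2, 9-2, 9-4, 10-1 and 10-3. In the type 1 neurons 1-1, 1-2, 4-3, 8-2 and 9-1 it had 69.9, 29.4, 0, 3.44 and 24.9 CPM. Only 10-1 among type 2 neurons reached the detection level, against 1-1, 1-2 and 9-1 among type 1 neurons, and the ranges of the types overlapped. The mean was 7.11 ± 9.24 CPM in type 2 neurons and 25.5 ± 28.0 CPM in type 1 neurons (SD, n = 5 each), and the difference of mean log2(CPM + 1), type 2 minus type 1, was -1.30. It was -0.66 without 1-1, -0.74 without 10-3 and -2.19 without 4-3. Pooled over neurons, 1286 counts in type 2 gave 8.57 CPM, with an exact Poisson 95% interval of 8.11 to 9.06. In type 1, 2380 counts gave 21.3 CPM, with an interval of 20.4 to 22.1. Such intervals, here and below, take each read as an independent molecule, which reads without molecular identifiers are not. They also leave out the spread between neurons, so they are too narrow and do not compare the types.

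Cacna1d (ENSMUSG00000015968, 12621 exon bases, chr14:30039939-30491455, minus strand) had the higher CPM of the L-type pair in 8 of 10 neurons. Per kilobase of exon, Cacna1d was also the higher one in 1-2, with 2.06 against 1.39 for the longer Cacna1c. It had 0.410, 42.2, 75.3, 52.3 and 6.77 CPM in 6-2, 9-2, 9-4, 10-1 and 10-3, and 142, 26.0, 2.86, 47.2 and 64.6 CPM in 1-1, 1-2, 4-3, 8-2 and 9-1. Neurons 6-2 and 10-3 of type 2 and 4-3 of type 1 lay under the detection level and the other 7 at 26.0 CPM or more, so that low and high cells occurred in both types. The mean was 35.4 ± 31.5 CPM in type 2 neurons and 56.5 ± 53.1 CPM in type 1 neurons (SD, n = 5 each), a difference of -0.92 on the log2(CPM + 1) scale. Without 6-2 the difference was -0.00, without 1-1 -0.41 and without 4-3 -1.71. Cacna1d shares 589 exon bases with Chdh on the opposite strand, and Chdh had no more than 0.0961 CPM in any neuron. The L-type sum was 2.79, 49.2, 78.5, 75.4 and 6.79 CPM in 6-2, 9-2, 9-4, 10-1 and 10-3, and 212, 55.4, 2.86, 50.6 and 89.5 CPM in 1-1, 1-2, 4-3, 8-2 and 9-1. Neurons with little Cacna1d had little Cacna1c too, and 6-2, 10-3 and 4-3 were near the bottom for both. Across the 10 neurons the L-type genes had the highest Pearson correlation of log2(CPM + 1) of any pair of the 8 genes, 0.70, described here over libraries that also differ in depth.

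Cacna1a encodes the P/Q-type pore, the main channel for fast transmitter release at many central synapses. Cacna1a (ENSMUSG00000034656, 11418 exon bases, chr8:84388440-84640246, plus strand) had 54.4, 39.3, 10.9, 0.697 and 0.939 CPM in the type 2 neurons 6-2, 9-2, 9-4, 10-1 and 10-3, and 74.5, 241, 90.5, 0.143 and 0.0319 CPM in the type 1 neurons 1-1, 1-2, 4-3, 8-2 and 9-1. It was detected in 3 neurons of each type, and in each type the other 2 neurons were under 1 CPM. The mean was 21.3 ± 24.3 CPM in type 2 neurons and 81.2 ± 98.5 CPM in type 1 neurons (SD, n = 5 each), and the difference of -0.90 on the log2(CPM + 1) scale was smaller than the pooled SD of 3.14. Its level sorted with sequencing depth: the 4 libraries under 20000000 counts had 54.4 to 241 CPM and the 6 above had 0.0319 to 39.3 CPM. These ranges did not overlap, which, with the shallower libraries higher, held for 1.93% of abundant genes. Within the deeper libraries the type 2 minus type 1 difference was 2.54 and within the shallower ones -1.10, so it has opposite signs in the depth sets. The part of depth in the Cacna1a values was not tested. The difference was 0.04 without 1-2, -1.90 without 8-2 and -1.93 without 9-1.

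**Figure D2:**
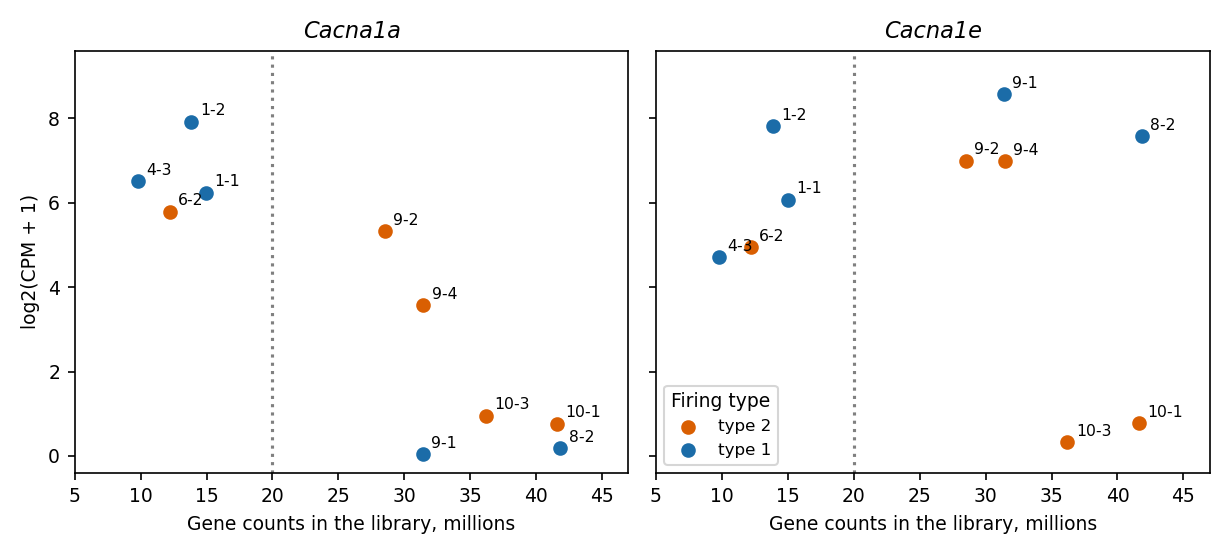
Level of Cacna1a (left) and Cacna1e (right) as log2(CPM + 1) against the gene counts of the library, 1 point per neuron, with type 2 in orange and type 1 in blue. The dotted line marks 20000000 counts. The 4 points left of it lie above the other 6 for Cacna1a, whereas for Cacna1e only 10-1 and 10-3 lie apart.

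Cacna1b encodes the N-type pore, which triggers transmitter release at many peripheral and central terminals and is inhibited by G protein βγ subunits. Cacna1b (ENSMUSG00000004113, 9942 exon bases, chr2:24603887-24763152, minus strand) had 17.6, 91.2, 7.06, 8.32 and 63.1 CPM in 6-2, 9-2, 9-4, 10-1 and 10-3, and 11.9, 10.9, 52.3, 72.2 and 32.1 CPM in 1-1, 1-2, 4-3, 8-2 and 9-1. It was the only one of the 8 genes with more than 5 CPM in every neuron, its lowest value being 7.06 CPM in 9-4. The mean was 37.5 ± 37.8 CPM in type 2 neurons and 35.9 ± 26.5 CPM in type 1 neurons (SD, n = 5 each), with a difference of -0.25 on the log2(CPM + 1) scale against a pooled SD of 1.41. The sign of this small difference changed with the neurons kept, from -0.74 without 9-2 to 0.14 without 9-4. In the pooled counts Cacna1b stood at 37.8 CPM for type 2, with a Poisson interval of 36.8 to 38.8, and at 43.6 CPM for type 1, with one of 42.3 to 44.8. This order is opposite to that of the means over neurons, and the intervals leave out the spread between neurons.

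Cacna1e encodes the R-type pore, found at dendrites and terminals and named for the current left when the other types are blocked. On the log2(CPM + 1) scale over all 10 neurons it had the largest difference of the 8 genes between the firing types, an order that did not hold for the log2 ratio of mean CPM (-1.63, against -3.71 for Cacna1i), for medians (-2.63, against -2.66 for Cacna1a), with first number 9 only (-1.58, against 4.41 for Cacna1a), or in the shallower libraries (-1.25, against -4.12 for Cacna1d). Cacna1e (ENSMUSG00000004110, 25228 exon bases, chr1:154390731-154884501, minus strand) had 29.8, 127, 126, 0.721 and 0.249 CPM in the type 2 neurons 6-2, 9-2, 9-4, 10-1 and 10-3, and 66.2, 225, 25.1, 190.0 and 379 CPM in the type 1 neurons 1-1, 1-2, 4-3, 8-2 and 9-1. Neurons 10-1 and 10-3 were nearly empty of it, and the other 3 type 2 neurons lay within the type 1 range. The mean was 56.7 ± 64.7 CPM in type 2 neurons and 177 ± 140 CPM in type 1 neurons (SD, n = 5 each), a difference of -2.94 on the log2(CPM + 1) scale against a pooled SD of 2.56. It was detected in 3 of 5 type 2 neurons (60.0%, interval 14.7 to 94.7%) and in 5 of 5 type 1 neurons (interval upward from 47.8%). From pooled counts the level was 53.2 CPM for type 2, with a Poisson interval of 52.0 to 54.4, and 216 CPM for type 1, with one of 214 to 219.

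The size of that difference depended on 10-1 and 10-3, which share the first number 10, so that the gap rests on 1 such number and the 2 neurons may not be independent. For 1.74% of abundant genes, both 10-1 and 10-3 lay below all of the other 8 neurons. Without these neurons, a choice made after seeing the data, the Cacna1e difference was -0.64, and the largest of the 8 was then 2.76 for Cacna1g. The difference was -4.30 within the deeper libraries and -1.25 within the shallower ones. The 3 type 2 neurons with Cacna1e, namely 6-2, 9-2 and 9-4, are also those with 6 or more microglial markers detected, while 10-1 and 10-3 had 0 and 1. Among type 1 neurons, 1-2 had 225 CPM of Cacna1e with microglial markers summing to 804 CPM, and the other 4 had 25.1 to 379 CPM with sums of 0.0668 to 59.6 CPM. Neuron 9-1, with the most Cacna1e, is also the one with the most oligodendrocyte transcripts, and without it the difference was -2.54. The part of depth or of microglial or oligodendrocyte transcripts in the Cacna1e difference was not tested.

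**Figure D3:**
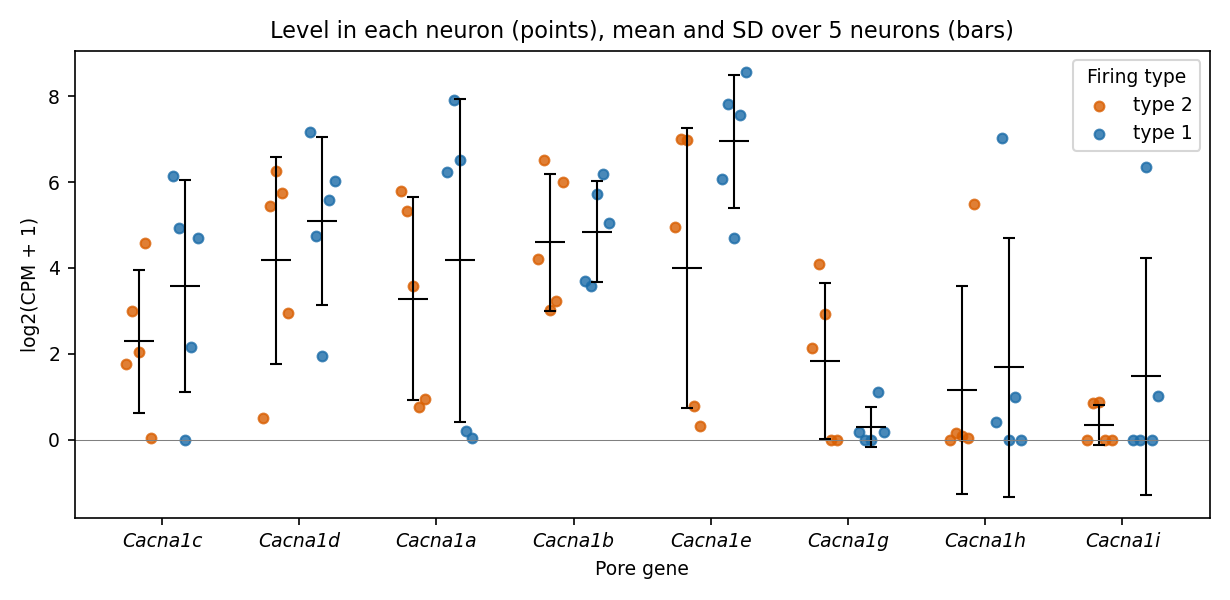
Level of each pore gene as log2(CPM + 1), with 1 point per neuron, type 2 (orange) left of type 1 (blue), and bars for the mean and SD over 5 neurons. For every gene the points of the types overlap. Cacna1e has the widest gap between means, -2.94, and 2 of its 5 type 2 points lie near 0.

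Together, the P/Q-, N- and R-type genes had 102, 257, 144, 9.73 and 64.3 CPM in 6-2, 9-2, 9-4, 10-1 and 10-3, and 153, 477, 168, 262 and 411 CPM in 1-1, 1-2, 4-3, 8-2 and 9-1. All type 2 neurons but 9-2 lay below the lowest type 1 neuron. The mean sum was 115 ± 93.4 CPM in type 2 neurons and 294 ± 145 CPM in type 1 neurons (SD, n = 5 each), with a difference of -1.79 on the log2(CPM + 1) scale. Cacna1b and Cacna1e were detected together in 7 neurons, Cacna1a and Cacna1e in 6, and Cacna1a and Cacna1b in 5. Neuron 10-1 was the only one of the 10 in which none of the 3 genes was detected, and its highest value among them was 8.32 CPM for Cacna1b.

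The T-type genes were sparse, and each was detected in at most 2 neurons. Cacna1g encodes a T-type pore of thalamic relay and many other neurons. Cacna1g (ENSMUSG00000020866, 10137 exon bases, chr11:94408391-94474198, minus strand) had 3.36, 16.2, 6.61, 0 and 0 CPM in the type 2 neurons 6-2, 9-2, 9-4, 10-1 and 10-3, and 0.134, 0, 0, 1.15 and 0.127 CPM in the type 1 neurons 1-1, 1-2, 4-3, 8-2 and 9-1. The 3 highest values were all in type 2 neurons and only 9-2 passed the detection level. The mean was 5.23 ± 6.70 CPM in type 2 neurons and 0.282 ± 0.488 CPM in type 1 neurons (SD, n = 5 each), a difference of 1.54 on the log2(CPM + 1) scale, the only positive one among the 8 genes. Pooled, 710 counts in type 2 gave 4.73 CPM (Poisson interval 4.39 to 5.10) and 54 counts in type 1 gave 0.483 CPM (0.363 to 0.630). Without 9-2 the difference was 0.97. Neurons 6-2, 9-2 and 9-4 are the type 2 neurons with microglial transcripts, and without them the difference was -0.29. Neuron 1-2, whose microglial markers summed to 804 CPM, had no Cacna1g count. The part of microglial transcripts was not tested.

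Cacna1h and Cacna1i encode the other T-type pores, Cacna1h being known in sensory neurons and Cacna1i in the reticular thalamus. Cacna1h (ENSMUSG00000024112, 9763 exon bases, chr17:25374285-25433783, minus strand) had 0, 0.105, 0.0636, 0.0240 and 43.6 CPM in 6-2, 9-2, 9-4, 10-1 and 10-3, and 0.334, 131, 0, 0.980 and 0 CPM in 1-1, 1-2, 4-3, 8-2 and 9-1. It was thus high in 1 neuron of each type and under 1 CPM in the other 8. Cacna1i (ENSMUSG00000022416, 9862 exon bases, chr15:80287238-80398279, plus strand) had 0, 0.807, 0.827, 0 and 0 CPM in 6-2, 9-2, 9-4, 10-1 and 10-3, and 0, 0, 80.6, 0 and 1.02 CPM in 1-1, 1-2, 4-3, 8-2 and 9-1. Neuron 4-3 alone held it at a high level. The differences on the log2(CPM + 1) scale, -0.54 for Cacna1h and -1.13 for Cacna1i, therefore rest on 1 or 2 neurons: the Cacna1i difference was 0.09 without 4-3, and the Cacna1h difference was 0.80 without 1-2 and -1.62 without 10-3. Cacna1h shares 158 exon bases with Tpsg1 on the opposite strand, which had at most 0.0722 CPM in any neuron. The 3 neurons rich in a T-type gene were distinct from those with the most Cacna1g, and no neuron had more than 1 T-type gene detected.

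Levels of different genes were compared as CPM per kilobase of exon, since longer transcripts give more reads. In type 2 neurons the median over 5 neurons was 3.35 for Cacna1d, 1.77 for Cacna1b, 1.18 for Cacna1e, 0.958 for Cacna1a, 0.332 for Cacna1g, 0.149 for Cacna1c, 0.00651 for Cacna1h and 0 for Cacna1i. In type 1 neurons it was 7.53 for Cacna1e, 6.53 for Cacna1a, 3.74 for Cacna1d, 3.23 for Cacna1b, 1.17 for Cacna1c, 0.0342 for Cacna1h, 0.0126 for Cacna1g and 0 for Cacna1i. Cacna1d led in type 2 and Cacna1e in type 1, and in both orders the ranges of every pair of neighbours overlapped. Those ranges do not pair the genes within a neuron. Taken within neurons, Cacna1a was above its neighbour Cacna1g in every type 2 neuron. There it had 4.76 against 0.332 in 6-2, but only 0.0610 and 0.0822 against 0 in 10-1 and 10-3.

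The pore gene that led on this scale changed from neuron to neuron. Cacna1a led in 6-2 with 58.1% of the CPM per kilobase of the 8 genes, Cacna1b in 9-2 with 39.9%, Cacna1d in 9-4 with 44.1% and in 10-1 with 67.3%, and Cacna1b in 10-3 with 55.4%. Among type 1 neurons, Cacna1d led in 1-1 with 45.1%, Cacna1a in 1-2 with 44.0%, Cacna1i in 4-3 with 36.2%, and Cacna1e in 8-2 with 39.8% and in 9-1 with 60.9%. The 10 neurons thus had 5 different leading genes, and neither firing type had a common one. By class, the P/Q, N and R genes held 94.2, 76.7, 49.3, 15.0 and 56.2% in 6-2, 9-2, 9-4, 10-1 and 10-3, and 41.5, 64.9, 62.8, 78.3 and 74.0% in 1-1, 1-2, 4-3, 8-2 and 9-1. Neuron 10-1 stood out with 84.9% in the L-type genes, followed by 1-1 with 58.3%. T-type genes held 39.1% in 10-3, 27.9% in 1-2 and 36.2% in 4-3, and at most 7.34% in each of the other 7 neurons.

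**Figure D4:**
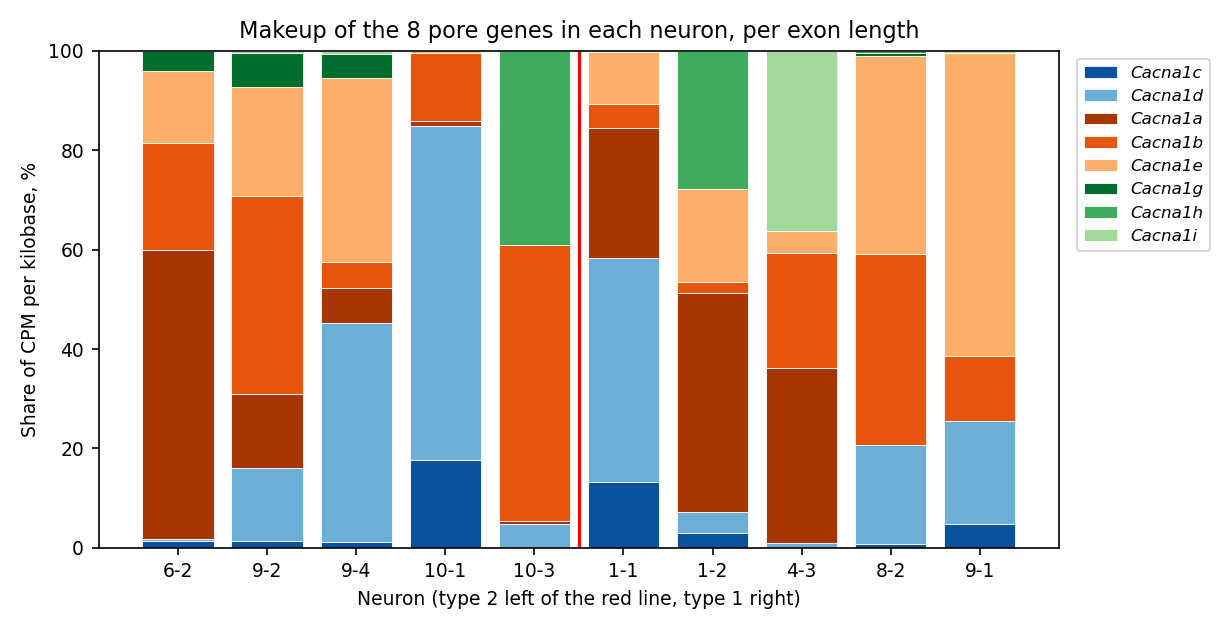
Share of each pore gene in the summed CPM per kilobase of the 8 genes, as stacked bars of 100% for each neuron, with type 2 left of the red line and type 1 right. Blue shades are L type, brown to orange P/Q, N and R, and green T. The leading colour differs between neighbours within both types, for example 67.3% Cacna1d in 10-1 and 55.4% Cacna1b in 10-3.

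The total over the 8 genes was 108, 324, 230.0, 85.1 and 115 CPM in 6-2, 9-2, 9-4, 10-1 and 10-3, and 365, 663, 251, 315 and 502 CPM in 1-1, 1-2, 4-3, 8-2 and 9-1. Of the type 2 neurons only 9-2 reached into the type 1 range. The mean total was 172 ± 102 CPM in type 2 neurons and 419 ± 165 CPM in type 1 neurons (SD, n = 5 each), and the difference on the log2(CPM + 1) scale was -1.38. Single genes showed the same sign in 7 of 8 cases: all but Cacna1g had the higher mean log2 level in type 1, where 43.6% of abundant genes did. The median difference over the 8 genes was -0.91, beside 0.24 over the 9212 abundant genes. A difference of 1 log2 unit or more, that is 2-fold on the CPM + 1 scale, was reached downward by 3 genes, Cacna1c, Cacna1e and Cacna1i, a size that 22.3% of abundant genes reached, and upward by 1, Cacna1g, which 32.1% did. No pore gene had ranges that did not overlap between the types, against 2.45% of abundant genes. Cacna1g and Cacna1i average under 10 CPM and are not among the abundant genes, and the other 6 are. The count of genes lower by 1 unit was 5 without 9-2.

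**Figure D5:**
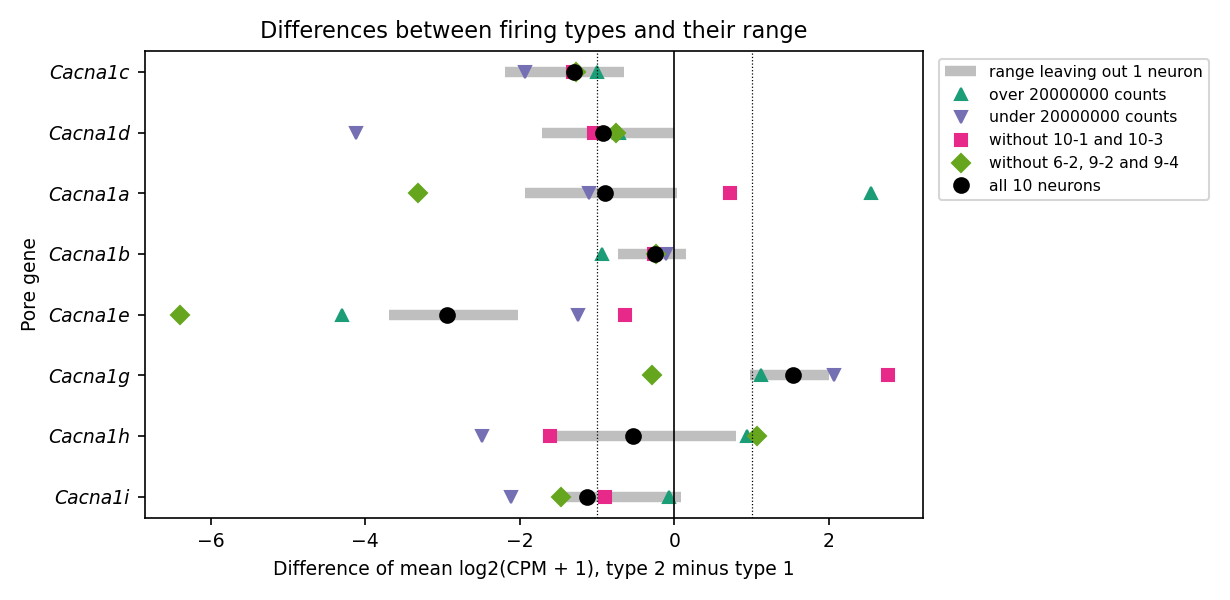
Difference of mean log2(CPM + 1), type 2 minus type 1, for each pore gene over all 10 neurons (black circle), with the range over leaving out each neuron in turn (grey bar) and the values in the deeper or shallower libraries (triangles), without 10-1 and 10-3 (squares) and without 6-2, 9-2 and 9-4 (diamonds). Dotted lines mark differences of 1 and -1. Cacna1e is left of 0 in every subset shown, from -6.40 to -0.64, whereas Cacna1a lies at 2.54 in the deeper libraries and -1.10 in the shallower ones.

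Pore subunits work with a cytoplasmic β subunit, which brings them to the membrane and tunes gating, and with an extracellular α2δ subunit. The β genes Cacnb3 and Cacnb4 had lower means in type 2 neurons, and the main α2δ gene was present in all 10 neurons. Cacnb3 had 98.5, 80.8, 6.55, 58.1 and 0.166 CPM in 6-2, 9-2, 9-4, 10-1 and 10-3, and 120.1, 379, 27.6, 341 and 392 CPM in 1-1, 1-2, 4-3, 8-2 and 9-1, a difference of -3.07 on the log2(CPM + 1) scale. Cacnb4 had 49.1, 79.3, 141, 15.8 and 0.110 CPM in 6-2, 9-2, 9-4, 10-1 and 10-3, and 214, 167, 101, 221 and 331 CPM in 1-1, 1-2, 4-3, 8-2 and 9-1, a difference of -2.93. Neuron 10-3 was at or under 0.166 CPM for both, as it was at 0.249 CPM for Cacna1e. The remaining β genes, Cacnb1 and Cacnb2, had differences of 0.41 and -0.98. In 10-3 Cacnb1 had 0.0552 CPM and Cacnb2 100.3 CPM, the highest Cacnb2 value among type 2 neurons. Cacnb1 and Cacnb2 were named after their values were seen. Of the 4 β genes, all of them abundant, 2 were lower by 1 log2 unit or more and 0 higher, where 22.3% of abundant genes were lower and 32.1% higher, and their median difference was -1.95. Their sum was 101 to 256 CPM in type 2 neurons and 289 to 801 CPM in type 1 neurons, so the types did not overlap on it. Single genes without overlap made up 2.45% of the abundant genes, a share that was not computed for sums of genes. Cacna2d1, which encodes an α2δ protein that binds gabapentin, had 117 ± 56.8 CPM in type 2 neurons and 72.6 ± 58.9 CPM in type 1 neurons (SD, n = 5 each) and a difference of 0.96. The other α2δ genes were detected in no more than 1 neuron each, Cacna2d4 at 35.8 CPM in 9-4 and Cacna2d3 at 14.1 CPM in 1-2, both named after their values were seen.

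The L-type pore genes of retina and skeletal muscle, Cacna1f and Cacna1s, were looked at as genes that these neurons would lack. Cacna1f had no count in any neuron. Cacna1s had 27.1 CPM in 6-2 and at most 0.216 CPM elsewhere. Both were named after their values were seen. Of 25 genes whose products modulate calcium channels, tether them at release sites or are opened by the calcium they admit, 23 were abundant, of which 6 were higher and 6 lower by 1 log2 unit or more, with a median difference of -0.16. Both counts are near the shares of abundant genes, 32.1% higher and 22.3% lower. Stac, an adaptor that in other cells slows inactivation of L-type channels, had 42.2, 13.6, 149.7, 0.0721 and 60.8 CPM in 6-2, 9-2, 9-4, 10-1 and 10-3, and was under 0.2 CPM in every type 1 neuron. Its difference of 4.47 on the log2(CPM + 1) scale came from 4 of 5 type 2 neurons. Rims2, a scaffold that holds calcium channels at the active zone, had 25.3 ± 23.0 CPM in type 2 neurons and 134 ± 99.7 CPM in type 1 neurons (SD, n = 5 each), a difference of -2.75.

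For each of the 5 pore genes detected in at least 4 neurons, up to 3 genes with the most similar pattern were taken by the Pearson correlation of log2(CPM + 1) over the 10 neurons, among 7347 genes detected in at least 4. For Cacna1c these were Marcksl1 (0.96) and Srpr (0.90), for Cacna1d Cpe (0.93), Aggf1 (0.91) and Nup54 (0.90), and for Cacna1a Cinp (0.97), Fndc10 (0.94) and Ero1lb (0.93). Cacna1b was nearest to Ryk (0.89), Alkbh8 (0.88) and Xkr6 (0.87), and Cacna1e to Traf7 (0.98), Zdbf2 (0.94) and Ubap2 (0.93). The median best correlation of any of the 7347 genes was 0.95, so only Cacna1c, Cacna1a and Cacna1e had a partner above that level. All of these share the same 10 libraries and their depths, and Cinp, like Cacna1a, was under 1 CPM in 10-1, 10-3, 8-2 and 9-1.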

How the data were processed

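RNA of 10 single neurons was sequenced, with 1 library per neuron. The deposited values are whole counts, 1 per gene and library, per the file headers, with no normalization and no molecular identifiers. Per the submitters' processing notes, cutadapt 1.13, STAR and DESeq2 (versions not stated) and HTSeq 0.6.1p1 were used with the mm10 build. The annotation release, strand option, read length and any amplification step were not given in the sources used here.

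CPM was computed from these counts by each library's summed gene counts, and levels are log2(CPM + 1). Positions, symbols and exon lengths came from GENCODE M21 on GRCm38 by gene identifier for 24942 of 25006 genes. The background was the 9212 genes averaging 10 CPM or more. The members and gene lists were chosen with earlier results of these data known. All 8 pore genes are named, with up to 2 genes per partner list (the widest differences among genes found in 3 or more neurons of either type), and 3 similar genes per pore gene, of which 1 is not reported here. Cacna1f, Cacna1s, Cacnb1, Cacnb2, Cacna2d3 and Cacna2d4 fall outside that rule, and the cell type markers given singly were picked from their lists after their values were seen. No animal is named, so no test between types was made. No library copied another: over 45 pairs the chi-square divided by its degrees of freedom was 634 or more. Alternatives were pseudocounts of 10 and 0.1, edgeR TMM (4.0.16) and DESeq2 (1.42.0) scaling, totals without the 50 most abundant genes, thinning to the depth of 4-3, ratios of means, medians, weighting by or restriction to the first number of the neuron names, depth sets, other detection levels and leaving out neurons. Python 3.11.15 and R 4.3.3 were used, and the calculation was tested on simulated data.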

Additional observations from a re-analysis of the deposited data

Results flagged for a closer look

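Among the 22 sets of 5 values looked at, 4 had 1 neuron far from the other 4, beyond Dixon's 95% critical value for the gap over the range. That value assumes normally distributed values, and CPM values mostly at or near 0 are skewed. The number of flags therefore cannot be set against a chance rate, and the flags only describe the values. All 4 were T-type genes. Cacna1h had 43.6 CPM in the type 2 neuron 10-3, and the other type 2 neurons had at most 0.105 CPM. In type 1 neurons Cacna1h had 131 CPM in 1-2 and at most 0.980 CPM in the others. Cacna1i had 80.6 CPM in the type 1 neuron 4-3 and at most 1.02 CPM in the other type 1 neurons. Cacna1g had 1.15 CPM in the type 1 neuron 8-2 and at most 0.134 CPM in the other type 1 neurons, all under the detection level.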

How the results depend on the processing

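The median difference of the 8 pore genes was negative under all 24 alternatives, from -1.59 in libraries under 20000000 counts to -0.17 among neurons with first number 9. The count of genes higher by 1 log2 unit, 1 over all neurons, was 0 with a pseudocount of 10 and 2 both with first number 9 only and in libraries over 20000000 counts, and ranged from 0 to 1 when each neuron was left out. The count lower by 1 unit, 3 over all neurons, was 1 with a pseudocount of 10, 5 with a pseudocount of 0.1, 5 as a log2 ratio of mean CPM and 6 in libraries under 20000000 counts, and ranged from 2 to 5 when each neuron was left out. A detection level of 50 CPM left 7 detections in type 2 and 14 in type 1, and one of 5 CPM gave 20 in type 2 and 22 in type 1. The numbers over all genes at these levels are not given here. The Cacna1g difference was -0.29 without 6-2, 9-2 and 9-4, and the Cacna1i difference 0.091 without 4-3 (range -1.50 to 0.091 over neurons left out). Cacna1c, Cacna1d and Cacna1e kept a negative difference under all 24, and Cacna1a was positive under 5, Cacna1b under 4 and Cacna1h under 4. TMM scaling moved the median of the abundant genes to 0.41, and the 3 lower and 1 higher pore genes were unchanged in number. Restricting to pore genes detected in at least 1 neuron removed none. The cause of these changes was not tested. No paired analysis was possible because the types share only 1 first number, 9, and no full neuron number. In the shallowest library a level under 0.306 CPM cannot be told from 0.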
